A study of Mus musculus with 2 samples.

Results

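The tumour necrosis factor (TNF) ligands, their receptors and the TRAF adaptor proteins were examined in splenic regulatory T cells with and without the transcription factor Bach2. Members were taken by gene symbol: every probe named Tnfrsf, Tnfsf or Traf1 to Traf7, and the probes for Tnf, Lta, Ltb, Ltbr, Cd27, Cd70, Cd40, Cd40lg, Fas and Fasl. This gave 78 probes for 47 of the 16593 named genes, made up of 17 ligands, 24 receptors and 6 TRAF adaptors. The samples were 1 array of cells from Bach2 KO mice (labelled male, 7 weeks old) and 1 array of cells from WT mice (labelled male, 6 weeks old), both on the C57BL/6 background. On both arrays the RNA came from spleen cells sorted as CD4+ CD25+ GITR+, the surface phenotype used here for regulatory T cells, and was hybridised with a biotin label to an Illumina mouse BeadChip. The number of animals behind each array, and how the knockout allele was made, were not stated in the labels. Since each genotype had 1 array, differences are given without error or test and hold for these 2 arrays alone.

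TNF superfamily ligands are mostly trimers that sit on the cell surface or are shed from it, and they cluster receptors with cysteine-rich outer domains. The receptors have no enzyme activity of their own. Some recruit TRAF adaptors and so reach the NF-kB and MAP kinase pathways, and others carry a death domain through which caspase-8 can be engaged. In regulatory T cells the receptors OX40, GITR and CD137 and the TNF receptor TNFR2 are known as costimulators, and GITR is commonly used to sort the cells. Bach2 is a bZIP factor known in lymphocytes chiefly for repressing its targets.

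Detection was called at a detection p-value under 0.01, which 10373 probes passed on the Bach2 KO array and 10431 on the WT array. The annotation held no probe for Bach2, so the arrays gave no check of the knockout itself. The sex label was not borne out on the Bach2 KO array. Xist, expressed from the inactive X chromosome of females, read 393 in Bach2 KO cells, against 12.3 in WT cells, where it was not detected. The Y-linked gene Eif2s3y read 983 in Bach2 KO cells and 3451 in WT cells, and Kdm5d read 120 in Bach2 KO cells and 827 in WT cells. Genotype cannot be told apart from whatever differs between the animals in sex or age. The 1 sex-linked family member, Cd40lg, was not detected on either array. The lineage factor Foxp3 was bright on both arrays, at 8656 in Bach2 KO cells and 8711 in WT cells, and none of the 10 T lineage genes with a probe differed by 1.5-fold.

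Of the 47 family genes, 29 were detected on at least 1 array: 25 on both, 3 on the Bach2 KO array only and 1 on the WT array only. The other 18 were not detected on either array and have no fold. Of all 16593 named genes, 7611 were detected on at least 1 array. Of these, 6994 were detected on both, 288 on the Bach2 KO array only and 329 on the WT array only. Each detected gene is described by its brightest detected probe, as the deposited background-subtracted intensity on each array and as the log2 difference, Bach2 KO minus WT, of the normalized intensities. Normalization adds a constant of 16 and equalises the distributions of the 2 arrays, so a fold is not the plain ratio of the 2 intensities. Where a gene was detected on 1 array only, its fold is a lower bound against the higher of its own value and the dimmest detected probe of the other array. The only measure of technical scatter was the SD between probes of the same gene, 0.23 on the log2 scale over 1734 genes.

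Counted at 1.5-fold, 4 of the 29 family genes were higher in Bach2 KO cells (13.8%, where 8.15% of all 7611 genes compared were) and 2 were lower (6.90%, where 6.77% of all genes were). The share lower was that of the array as a whole, and the share higher rests on 4 genes. The 4 were the ligands Tnfsf10, Fasl and Tnfsf11 and the receptor Cd40, and the 2 were the adaptors Traf4 and Traf5. Cd40 was detected in Bach2 KO cells only and counts at its bound. Among the 25 members detected on both arrays, 3 were higher and 2 lower. Of all genes detected on both arrays, 7.81% were higher and 6.39% lower. At 2-fold, the count was 1 higher, again Cd40 (3.27% of all genes), and 0 lower (1.55% of all genes). The median difference of the family was -0.01, against -0.02 over all genes compared. With median scaling in place of quantile normalization the array-wide split was 744 genes higher and 373 lower at 1.5-fold, against 620 and 515 with quantile normalization.

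**Figure D1:**
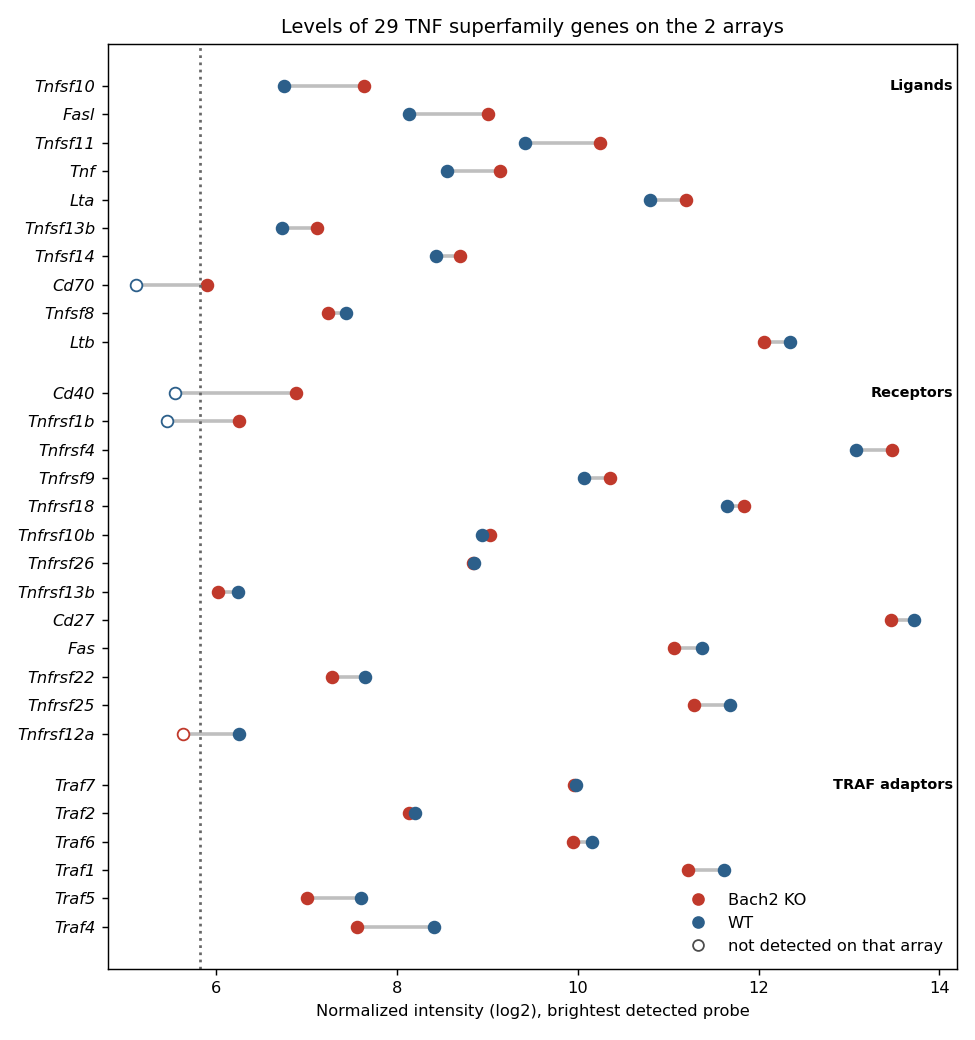
Normalized intensity (log2) of the 29 detected family genes in Bach2 KO cells (red) and WT cells (blue), 1 array each, by role. Open circles were not detected on that array, and the dotted line marks the dimmest detected probe on the Bach2 KO array (5.81). Most pairs of points lie close together, with the widest gaps between detected values at Tnfsf10, Fasl, Tnfsf11 and Traf4.

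Of the 10 ligand genes compared, 3 were at least 1.5-fold higher in Bach2 KO cells, none was lower by 1.5-fold and 7 were within it. Over all 7611 genes compared, 8.15% were higher and 6.77% lower. Of the 9 detected on both arrays, 7 had differences above 0, though 2 of these, Tnfsf13b and Tnfsf14, had a second probe below 0. The 9 had a median difference of 0.41, and 46.7% of all genes detected on both arrays were above 0. Over the 10 ligands compared, with Cd70 at its bound, the median was 0.39. These differences are of whole sorted samples, in which more cells expressing a transcript and more RNA per cell cannot be told apart.

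Both death ligands were higher. Tnfsf10 encodes TRAIL, which kills cells through a death receptor, and read 187 in Bach2 KO cells and 90.9 in WT cells. Its log2 difference was 0.89 (1.86-fold). Fasl encodes Fas ligand, used by cytotoxic lymphocytes to kill Fas-bearing cells, and read 502 in Bach2 KO cells and 260 in WT cells. It differed by 0.87 (1.83-fold). Tnfsf10 was the less firm of the 2: on the authors' series matrix values, which keep a constant background in every value, its difference was 0.54, under 1.5-fold.

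Tnfsf11 encodes RANKL, the ligand that drives osteoclast formation and is also made by activated T cells. It read 1225 in Bach2 KO cells and 653 in WT cells, a difference of 0.84 (1.79-fold). Tnfsf11, Fasl and Tnfsf10 each had 1 probe in the annotation, so no second probe bears on them. Fasl and Tnfsf11 stayed at least 1.5-fold higher under all 10 alternative settings. Those settings that changed only the detection filter or the use of several probes could not move them.

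The genes for TNF and the lymphotoxins did not share 1 direction. Tnf, the inflammatory cytokine that names the family, read 550 in Bach2 KO cells and 354 in WT cells. Its difference of 0.58 (1.497-fold) lay just short of 1.5-fold, and passed it with median scaling (0.65), with cyclic loess normalization (0.61) and with an offset of 1 (0.60). Lta, which encodes secreted lymphotoxin alpha, read 2352 in Bach2 KO cells and 1724 in WT cells, a difference of 0.41, and its other probe differed by 0.80. Ltb encodes the membrane anchor that carries lymphotoxin alpha on the cell surface, and read 4279 in Bach2 KO cells and 5074 in WT cells. It differed by -0.29. In RefSeq's gene table (GRCm38.p6) Ltb, Tnf and Lta are consecutive protein-coding genes on chromosome 17, so neighbours in this locus lay on opposite sides of 0.

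The remaining detected ligands differed little. Tnfsf13b encodes BAFF, a survival factor for B cells, and its 2 probes disagreed: the brighter read 123 in Bach2 KO cells and 90.2 in WT cells (0.38), and the other 81.2 in Bach2 KO cells and 102 in WT cells (-0.29). Tnfsf14 encodes LIGHT, a ligand of the lymphotoxin beta receptor and HVEM, and differed by 0.27 at 1 probe and -0.06 at the other. Tnfsf8, the CD30 ligand gene, read 136 in Bach2 KO cells and 155 in WT cells (-0.20). Cd70, the ligand gene of CD27, was detected in Bach2 KO cells only, at 43.4 against 17.2 in WT cells, and so close to background that its bound was 1.07-fold.

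**Figure D2:**
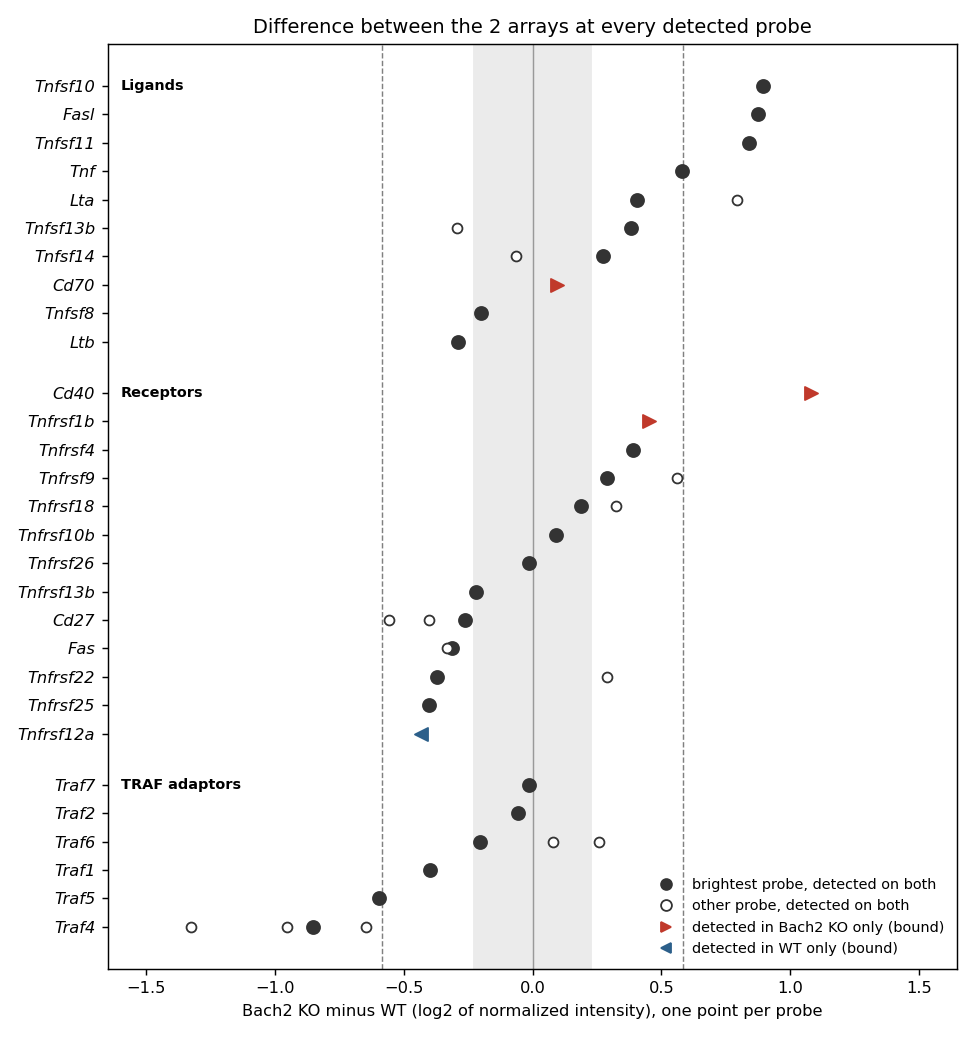
Difference Bach2 KO minus WT (log2 of normalized intensity) at each of the 43 detected probes of the family, 1 point per probe, by role. Filled circles are the probe that stands for the gene, open circles its other probes, triangles bounds for genes detected on 1 array. The grey band is the SD between probes of a gene (0.23) and the dashed lines mark 1.5-fold. All 4 Traf4 probes lie left of the lower line, from -0.65 to -1.33.

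No receptor gene detected on both arrays differed by 1.5-fold, where 7.81% of all genes detected on both were higher and 6.39% lower. Over the 10 such receptors the differences ran from -0.40 to 0.39, with 4 above 0 and 6 below and a median of -0.12. Among the costimulatory receptors, Tnfrsf4 (OX40), which sustains T cell survival and effector memory, read 11607 in Bach2 KO cells and 8376 in WT cells, a difference of 0.39. Tnfrsf9, which encodes CD137, read 1314 in Bach2 KO cells and 1029 in WT cells (0.29), and its other probe differed by 0.56. Both are commonly raised on activated T cells.

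Tnfrsf18 encodes GITR, on whose protein the cells were sorted, and the part of the gate in its level was not tested. Its brighter probe read 3703 in Bach2 KO cells and 3124 in WT cells (0.19), and its other probe differed by 0.32. In the same gene table Tnfrsf4 and Tnfrsf18 are neighbours on chromosome 4, and both lay above 0 at every detected probe. Cd27, a costimulatory receptor of naive and memory T cells, lay below 0. It read 11491 in Bach2 KO cells and 13267 in WT cells at the probe that stands for it (-0.26), and -0.41 and -0.56 were measured at the further 2 probes.

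Of the death domain receptors, 2 lay below 0 and 1 slightly above. Fas, the receptor of Fas ligand, read 2153 in Bach2 KO cells and 2607 in WT cells (-0.31), with -0.33 at its other detected probe. Tnfrsf25 encodes DR3, the receptor of the ligand TL1A and a known costimulator of regulatory T cells, and read 2501 in Bach2 KO cells and 3201 in WT cells (-0.40). Tnfrsf10b, the TRAIL receptor gene of the mouse, read 513 in Bach2 KO cells and 471 in WT cells (0.09). Fasl was thus higher while the receptor gene Fas was slightly lower, and Tnfsf10 was higher with Tnfrsf10b nearly level.

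Cd40 was the 1 receptor gene past 1.5-fold, and it was detected in Bach2 KO cells only. CD40 is the receptor through which B cells, dendritic cells and macrophages receive T cell help. Its detected probe read 103 in Bach2 KO cells and 31.2 in WT cells, at least 2.12-fold higher, and its other 3 probes passed the detection threshold on neither array. The WT reading had a detection p-value of 0.0263, near the threshold. With the series matrix values the bound was 0.50 on the log2 scale, under 1.5-fold. Of the 9 B cell markers with a probe, 4 were detected. Cd79b differed by 1.16, Cd22 by 1.10 and Fcmr by -1.37, Cd79a was at the detection limit, and Ms4a1, Pax5, Ebf1, Blk and Vpreb3 were not detected on either array. The summed intensity of the 4 was 1859 in Bach2 KO cells and 1342 in WT cells. Of the 9 myeloid and dendritic markers with a probe, 4 were detected, summing to 1258 in Bach2 KO cells and 847 in WT cells. Fcer1g differed by 0.73, Lyz2 by 0.04 and Adgre1 by -0.14. Tyrobp was detected in Bach2 KO cells only, with a bound of 1.16. Itgam, Itgax, Cd14, Batf3 and Zbtb46 were not detected on either array. The part of such cells in the Cd40 reading was not tested.

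Tnfrsf1b, which encodes TNFR2, was likewise detected in Bach2 KO cells only, at 59.9 against 28.1 in WT cells. The bound was 1.37-fold, and the WT reading had a detection p-value of 0.0388, so its call there depends on the threshold. Tnfrsf12a, the receptor gene of the ligand TWEAK, was the 1 member detected in WT cells only, at 33.0 in Bach2 KO cells against 60.6 in WT cells, at least 1.35-fold lower, and its Bach2 KO reading had a detection p-value of 0.0188. Tnfrsf13b (TACI, a BAFF receptor) was dim on both arrays, at 48.9 in Bach2 KO cells and 59.9 in WT cells. Tnfrsf22, a decoy TRAIL receptor gene of the mouse, differed by -0.37 at its brighter probe and 0.29 at the other, and its neighbour Tnfrsf26 on chromosome 7 by -0.01.

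The TRAF adaptor genes lay at or below 0. All 6 on the array were detected on both arrays, with differences of -0.02 for Traf7, -0.06 for Traf2, -0.20 for Traf6, -0.40 for Traf1, -0.59 for Traf5 and -0.85 for Traf4, and a median of -0.30. At least 1.5-fold lower were 2 of the 6, Traf4 and Traf5. Of all genes detected on both arrays, 53.2% lay below 0 and 6.39% were at least 1.5-fold lower. The signs of the 3 smallest TRAF differences did not hold throughout. Traf7 was at 0.08 and Traf2 at 0.03 with median scaling, Traf7 at 0.03 with cyclic loess, and Traf6 at 0.04 with the mean of its probes, whose other 2 differed by 0.08 and 0.26.

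Traf4, an adaptor that most TNF receptors do not recruit and that is known from epithelial and neural development, differed most. Its brightest probe read 175 in Bach2 KO cells and 317 in WT cells, 1.80-fold lower. The other 3 read 132, 74.0 and 70.7 in Bach2 KO cells, against 263, 125 and 196 in WT cells, for differences of -0.95, -0.65 and -1.33. Each Traf4 probe was thus lower in Bach2 KO cells by more than 1.5-fold. Traf5, an adaptor of OX40, CD27 and CD40 signalling, read 115 in Bach2 KO cells and 175 in WT cells at its 1 probe, 1.51-fold lower. That fold lies at the threshold, and it was smaller than 1.5 with median scaling (-0.51), cyclic loess (-0.52), an offset of 50 (-0.49) and the series matrix values (-0.37).

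Traf1, itself an NF-kB target and a partner of TRAF2, read 2388 in Bach2 KO cells and 3061 in WT cells. Traf2, which brings ubiquitin ligases to the receptors, read 271 in Bach2 KO cells and 273 in WT cells. Traf6, shared with the interleukin 1 and Toll-like receptor pathways, read 992 in Bach2 KO cells and 1098 in WT cells at its brightest probe. Traf7, which lacks the domain that binds receptors, read 1000.5 in Bach2 KO cells and 970 in WT cells. Traf2 and Traf7 were thus close to level, and Traf1 was 1.32-fold lower.

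**Figure D3:**
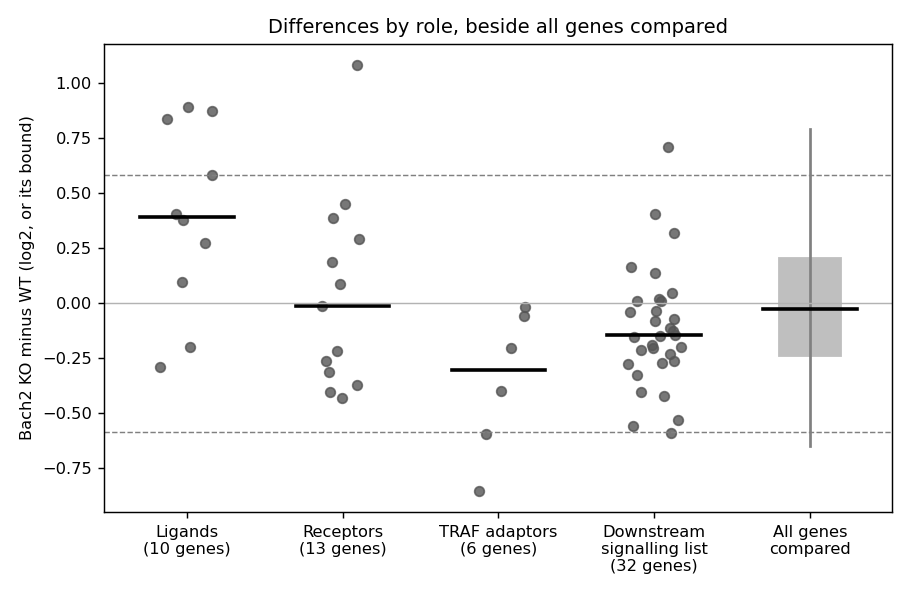
Difference Bach2 KO minus WT (log2, or its bound) for the 10 ligands, 13 receptors and 6 TRAF adaptors compared and for the 32 detected genes of the downstream signalling list, 1 point per gene with the median as a bar. The rightmost column gives all genes compared as median, middle range from the 25th to the 75th percentile (box) and 5th to 95th percentile (line, -0.65 to 0.79). The ligand median (0.39) lies above 0 and the TRAF median (-0.30) below.

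The upstream sequences of the 5 members that were detected on both arrays and passed 1.5-fold are shown because these genes carry the differences described above. They are the 250 bases before each gene's start, 5′ to 3′ on the gene's strand, from RefSeq (GRCm38.p6). Capitals mark TGCTGA on either strand, the half-site of the element that Bach and small Maf proteins bind together.
Tnfsf10 (chr3:27316827-27317076, plus strand): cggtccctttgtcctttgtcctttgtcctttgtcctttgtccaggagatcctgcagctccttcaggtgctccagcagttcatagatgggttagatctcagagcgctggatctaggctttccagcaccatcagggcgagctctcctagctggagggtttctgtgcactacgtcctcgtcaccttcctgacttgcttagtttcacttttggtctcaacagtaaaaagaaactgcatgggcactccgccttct
Fasl (chr1:161788496-161788745, minus strand): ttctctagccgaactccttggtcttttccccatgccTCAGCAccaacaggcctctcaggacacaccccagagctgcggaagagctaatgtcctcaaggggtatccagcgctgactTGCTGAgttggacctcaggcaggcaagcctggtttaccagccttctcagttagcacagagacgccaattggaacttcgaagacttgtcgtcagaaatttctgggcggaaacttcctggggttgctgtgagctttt
Tnfsf11 (chr14:78308044-78308293, minus strand): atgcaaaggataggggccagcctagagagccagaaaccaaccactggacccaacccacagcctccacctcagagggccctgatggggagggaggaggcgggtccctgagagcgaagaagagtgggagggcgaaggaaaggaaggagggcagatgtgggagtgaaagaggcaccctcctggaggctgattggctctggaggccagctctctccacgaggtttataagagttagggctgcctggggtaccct
Traf4 (chr11:78165551-78165800, minus strand): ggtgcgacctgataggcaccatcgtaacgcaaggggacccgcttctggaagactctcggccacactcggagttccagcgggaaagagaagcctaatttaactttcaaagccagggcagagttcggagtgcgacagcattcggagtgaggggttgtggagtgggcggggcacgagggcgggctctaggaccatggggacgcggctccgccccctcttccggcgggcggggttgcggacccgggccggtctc
Traf5 (chr1:192092600-192092849, minus strand): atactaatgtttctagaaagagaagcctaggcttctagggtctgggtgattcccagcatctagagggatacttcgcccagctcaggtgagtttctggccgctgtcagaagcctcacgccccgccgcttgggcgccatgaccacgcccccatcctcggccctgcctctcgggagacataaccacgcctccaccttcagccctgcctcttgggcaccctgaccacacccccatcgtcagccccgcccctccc

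Of the 47 members, 37 had such a sequence, with 41 starts in all. TGCTGA was present in 6 of the 41, against 16.1% of the 32851 starts in the table, and among the 5 printed in Fasl only, at 214 and 135 bases before the start. The AP-1 core TGANTCA was in 5 of the 41 and in none of the 5 printed, against 6.75% of all starts. Its matches were before Tnfrsf8, Fas, Tnfsf14 and 1 of the starts each of Tnfrsf9 and Tnfsf13b. Both motifs were searched on both strands, and the TGCTGA half-site was chosen after the sequences were seen. A full Maf recognition element of the kind built around the AP-1 core would hold both motifs. A match is a run of letters, and no binding was measured here.

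The genes that carry the signal onward differed less than the ligands. A list of 40 receptor-proximal and NF-kB genes had 35 with a probe and 32 detected, all on both arrays. Of these, 1 was at least 1.5-fold higher and 1 at least 1.5-fold lower, which is 3.12% each way, against the 8.15% higher and 6.77% lower of all genes. The list's median was -0.15, and 23 of its 32 genes lay below 0, where 53.2% of all genes detected on both arrays did. Nfkbib, which encodes the inhibitor IkB beta, was the 1 higher, at 370 in Bach2 KO cells and 213 in WT cells (0.71, 1.64-fold). Tnip2, a partner of the inhibitor A20, was the 1 lower, at 108 in Bach2 KO cells and 166 in WT cells (-0.59).

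Among the NF-kB subunits, Rel differed by 0.41, Rela by -0.21, Relb by -0.13 and Nfkb2 by 0.02. Nfkbia, a feedback inhibitor gene induced by NF-kB, differed by -0.08, and Tnfaip3, which encodes the inhibitor A20, by -0.11. Map3k14 encodes NIK, the kinase of the alternative NF-kB pathway that TRAF proteins hold in check, and read 518 in Bach2 KO cells and 734 in WT cells (-0.53). Casp8, the caspase engaged by death receptors, read 3124 in Bach2 KO cells and 4443 in WT cells (-0.56), with -0.36 at its other probe. The adaptor Fadd differed by 0.14, and Cflar, the gene of the caspase-8 inhibitor FLIP, was not detected. None of these passed 1.5-fold.

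Both ends of a ligand and receptor pair were rarely detected. Of a list of 22 known pairs with probes at both ends, both were detected for 6 in Bach2 KO cells and for 3 in WT cells. The list did not pair Tnfsf10 with the decoy receptor gene Tnfrsf22, and both of these were detected on both arrays. The 3 shared by the arrays were Fasl with Fas, Tnfsf10 with Tnfrsf10b and Tnfsf13b with Tnfrsf13b. The further 3 in Bach2 KO cells, Tnf and Lta with Tnfrsf1b and Cd70 with Cd27, rest on the dim readings of Tnfrsf1b and Cd70 described above. At a detection p-value under 0.05 the counts were 9 in Bach2 KO cells and 7 in WT cells.

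**Figure D4:**
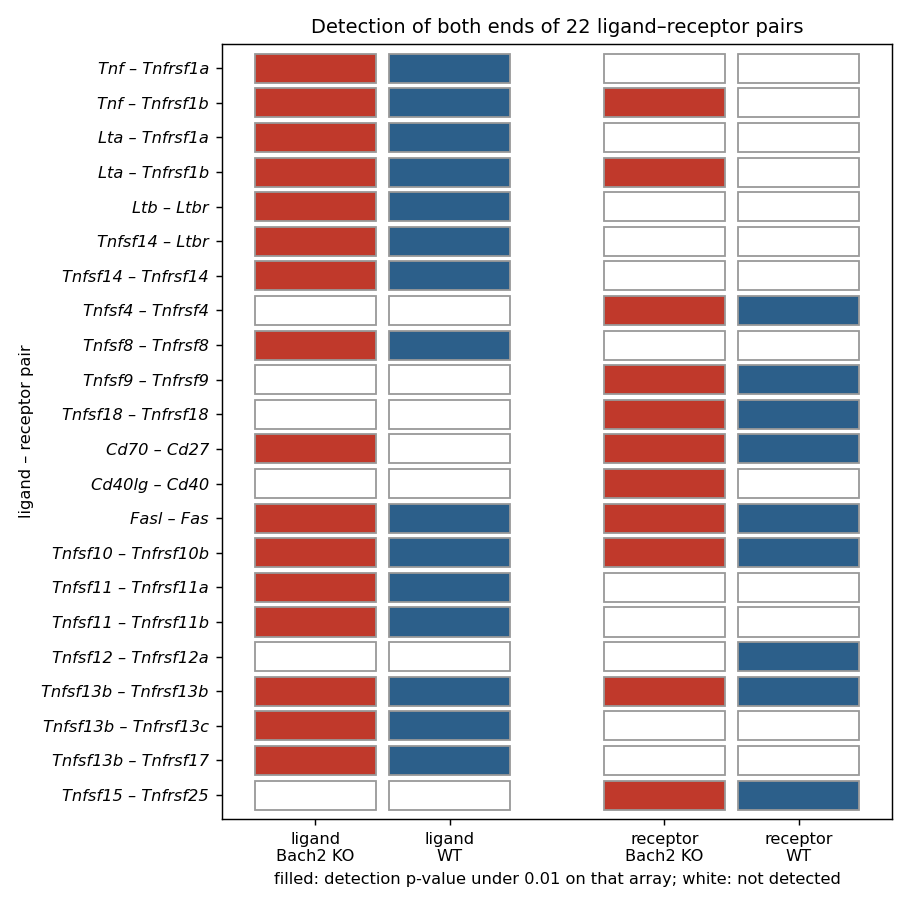
Detection of each end of the 22 ligand and receptor pairs. A filled cell is a gene detected on that array (detection p-value under 0.01), red for Bach2 KO and blue for WT, and a white cell one that was not. The bright costimulatory receptors Tnfrsf4, Tnfrsf9 and Tnfrsf18 have filled cells on the receptor side with white cells for their ligands.

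For the costimulatory receptors Tnfrsf4, Tnfrsf9, Tnfrsf18 and Tnfrsf25 the ligand genes Tnfsf4, Tnfsf9, Tnfsf18 and Tnfsf15 were not detected on either array. The reverse held for Ltb, Tnfsf8, Tnfsf11 and Tnfsf14, whose receptor genes Ltbr, Tnfrsf8, Tnfrsf11a, Tnfrsf11b and Tnfrsf14 were not detected. A probe that is not detected gives no level, and weak probes and absent transcripts look alike on an array. The other undetected members were Cd40lg, Tnfsf12, Tnfsfm13, Tnfrsf1a, Tnfrsf13c, Tnfrsf17, Tnfrsf19, Tnfrsf21 and Tnfrsf23. Of the 18, 3 were nearest to detection in Bach2 KO cells: Tnfsf4, with a detection p-value of 0.016 in Bach2 KO cells and 0.217 in WT cells, Tnfrsf13c, the BAFF receptor gene, with 0.0188 in Bach2 KO cells and 0.152 in WT cells, and Tnfrsf17, the plasma cell receptor BCMA, with 0.0263 in Bach2 KO cells and 0.248 in WT cells. Nearest in WT cells were Tnfrsf1a, the TNF receptor with a death domain, with 0.224 in Bach2 KO cells and 0.0326 in WT cells, and Tnfrsf21 with 0.183 in Bach2 KO cells and 0.0815 in WT cells.

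Markers of other cell types and of cell division were read on the same arrays. For the counts below, 8.15% of all 7611 genes compared were at least 1.5-fold higher and 6.77% lower. Fasl and Tnfsf10 are also made by NK cells, and of the 9 NK markers with a probe 7 were detected, of which 5 were at least 1.5-fold higher and 1 lower. These 7 summed to 4318 in Bach2 KO cells and 3160 in WT cells, and Ncr1 and Gzma were not detected on either array. Nkg7 differed by 1.70 and Klrd1 by 0.90. Tyrobp, among the 5 higher, is also on the myeloid and dendritic list above, so its reading enters both sums. The 1 lower was Prf1, at -0.60 at its brightest probe and 0.01 at its other detected probe. Cell cycle genes were higher too, 11 of 13 detected by at least 1.5-fold and none lower, summing to 33904 in Bach2 KO cells and 17996 in WT cells. Of the 5 detected mast cell and basophil markers all were at least 1.5-fold higher, summing to 1173 in Bach2 KO cells and 373 in WT cells. Of the 8 detected neutrophil markers 7 were at least 1.5-fold lower, summing to 996 in Bach2 KO cells and 3441 in WT cells, and the 3 detected red cell genes, all at least 1.5-fold lower, to 213 in Bach2 KO cells and 585 in WT cells. For CD8 T cells, Cd8a was not detected and Cd8b1 differed by 0.20. Of the 3 detected plasma cell markers, Jchain had a bound of 1.57-fold higher, Xbp1 differed by 0.30 and Mzb1 by 0.12. Their sum was 6312 in Bach2 KO cells and 4864 in WT cells, most of it Xbp1, at 5956 and 4592. Sdc1, Prdm1 and Derl3 were not detected on either array. The part of these cells and of cell division in the family's differences was not tested.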

How the data were processed

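Expression was measured on 1 Illumina BeadChip per genotype. The authors deposited an intensity for each of 25697 probes and array that the file header calls non-normalized. These deposited intensities were background-subtracted, since 29.5% on the Bach2 KO array and 30.4% on the WT array were below 0. A detection p-value was deposited beside each. The labels do not name the scanner software. The authors' series matrix intensities were a straight-line function of the same values (intercepts 83.3 for Bach2 KO and 86.6 for WT), so they are linear, uncentred and not independent. Their column medians were 95.6 and 99.7.

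GEO's platform annotation supplied gene names: 23978 probes had 1 symbol, none several, and 1719 were not listed and are unnamed. All 78 family probes matched RefSeq's gene table by gene number. No genome sequence was used beyond RefSeq's table of upstream sequences (GRCm38.p6). Intensities were corrected by normexp with its noise estimated through the detection p-values, shifted by an offset of 16, quantile normalized and put on the log2 scale (neqc, limma 3.58.1, R 4.3.3). Quantile normalization hides a shift of all genes, and the offset pulls dim genes towards 0. A gene was represented by its brightest probe detected (p-value under 0.01) on at least 1 array. No test was possible, and genes were counted at 1.5-fold, with 10 alternatives tried. The normalization was tested on simulated folds, planted only in brighter probes detected on both arrays and with a noise level that was set. That test does not cover the bounds for genes detected on 1 array. All detected members are named, with signalling genes past 1.5-fold, NF-kB subunits, Nfkbia and Tnfaip3; Map3k14, Casp8, Fadd and Cflar were added after their values were seen. Members and lists were chosen with earlier results of these data known. The number of arrays limits the precision.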

Additional observations from a re-analysis of the deposited data

How the results depend on the processing

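Of 286 values of single family genes under the alternatives, 270 moved by less than the SD between probes of a gene (0.23), 16 moved by more, and none of the 6 genes past 1.5-fold changed sign. Fasl, Tnfsf11 and Traf4 stayed past 1.5-fold under all 10 settings, Tnfsf10 under 9, Traf5 under 6 and Cd40 under 8 of the 9 that gave it a value. Settings that changed only the detection filter or the use of several probes could not move a gene whose 1 probe was detected on both arrays. The family counts were 4 higher and 2 lower (8.15% and 6.77% of all genes). Median scaling gave 5 higher and 1 lower (9.78% and 4.90% of all genes), cyclic loess 5 and 1 (8.95% and 5.64%), an offset of 1 gave 6 and 2 (9.32% and 8.20%) and an offset of 50 gave 4 and 1 (6.46% and 4.51%). The mean of each gene's probes gave 5 higher and 2 lower (8.03% and 6.50%), and a detection p-value under 0.05 gave 5 and 3 of 33 (8.15% and 7.15%). On the series matrix values, which keep a constant background, they were 2 higher and 1 lower (4.87% and 2.93%). With no filter on dim probes, where all 47 genes enter at their own value, they were 9 higher and 4 lower (5.25% and 4.81%). Among only the 25 members detected on both arrays, they were 3 higher and 2 lower (7.81% and 6.39%). The signalling list's 1 lower gene became 0 with median scaling, cyclic loess and an offset of 50, and on the series matrix values 0 were higher and 0 lower. The family median ranged from -0.02 to 0.09 and had no settled sign. Of 10 members with several probes detected on both arrays, 4 (Tnfrsf22, Tnfsf13b, Tnfsf14 and Traf6) had probes of opposite sign. No paired analysis was possible because each group had 1 array, and for the same reason no replicate could be left out.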
